A study of Mus musculus with 8 samples.

Results

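The 41 genes described here encode secreted and membrane-bound proteases of the extracellular matrix and the inhibitors that act on them. They are 19 ADAMTS genes, 18 matrix metalloprotease (MMP) genes and the 4 tissue inhibitors of metalloproteases (Timps). They were chosen by name: a gene is a member if its symbol in the deposited count table is on a list of 41 symbols. That list was drawn up with earlier results of these data known. All 41 were found, once each, among the 35275 genes of that table, and 36 had enough reads to be tested.

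Bulk RNA sequencing measured 8 mouse tumours. In every animal Nf2 and Cdkn2a, tumour suppressor genes whose loss is frequent in mesothelioma, were homozygous for floxed alleles, and an adenovirus carrying Cre was injected into the peritoneum, so the controls carry both deletions too. The group labelled Pak2-/- was floxed at Pak2 as well and held 4 primary peritoneal tumours (13, 14A, 59 and 61) and 1 secondary tumour (14B). The group labelled wild-type had unfloxed Pak2 and held 3 primary tumours (19, 20 and 127). The labels give no age, no promoter for the viral Cre and no cell type in which it acted. They do not say whether the tumours of a group, or 14A and 14B, came from separate mice, so p-values measure only the spread between these samples, which may be technical.

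ADAMTS proteases are secreted and bind the matrix; some cleave proteoglycans such as versican and aggrecan, some trim the ends of procollagens, and some act on fibrillin or cartilage oligomeric matrix protein. MMPs are made as inactive precursors and, once activated, cleave collagens, gelatin, elastin and laminins, and the membrane-type members do so at the cell surface. Timps bind the active site of MMPs and block them. Protease activity thus depends on activation and inhibition as well as on the transcript levels measured here.

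Depth was 13469851 counts in tumour 14B, the lowest, and 20402401 in 14A, the highest, and values are given as CPM, counts scaled to the library size with TMM factors. A gene at 0 counts could still be present at 3 counts, which is 0.139 to 0.193 CPM in the primary tumours and 0.311 CPM in 14B, counting error alone. Pak2 transcripts were not lower in the tumours labelled Pak2-/-, at 180.0 ± 44.9 CPM against 103 ± 20.9 CPM in wild-type tumours (SD, n = 4 and 3), with a log2 fold change of 0.82 (SE 0.28, adjusted p = 0.267 in edgeR). Adjusted p-values here and below come from the quasi-likelihood test of edgeR, corrected by the Benjamini-Hochberg method for all genes tested. Nf2 and Cdkn2a had log2 fold changes of -0.23 and 0.80. Reads counted over a whole gene do not check the loss of floxed exons. The summed level of 9 mesothelial markers was 85.9 to 448 CPM in tumours labelled Pak2-/-, 236 CPM in 14B and 131 to 324 CPM in wild-type tumours, and Calb2 was at or under 0.308 CPM in all of them. The sum came from different markers in different tumours. In tumour 13, Pdpn alone was at 170 of 180 CPM, and Msln was at 1.11 CPM. In tumour 61, Pdpn was at 101 CPM and Msln at 132 CPM. Xist was at 1.33 CPM or less in all tumours labelled Pak2-/- and at 151, 459 and 26.6 CPM in wild-type tumours 19, 20 and 127. Ddx3y, a gene of the Y chromosome, was at 85.4 to 104 CPM in primary tumours labelled Pak2-/-, 84.2 CPM in 14B, and 1.62, 1.24 and 115.6 CPM in the same wild-type tumours, so for most tumours the Pak2 label and the sex of the mice cannot be told apart.

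Per kilobase of gene length, the only scale on which levels of different genes are compared here, a few inhibitors and activating enzymes led the family. Timp1 had the highest mean over the 7 primary tumours, 459.6 CPM per kilobase, followed by Timp2 at 309, Mmp14 at 278 and Mmp2 at 217 CPM per kilobase. Mmp9 came next at 89.6, Mmp3 at 52.5, Timp3 at 47.3 and Mmp23 at 42.3 CPM per kilobase. Adamts2, which removes the amino-terminal propeptide of fibrillar procollagens, was the highest ADAMTS gene at 40.3 CPM per kilobase. The order of the leading members was not fixed: Timp1 stood first in tumours 13 and 59 labelled Pak2-/-, in 14B and in wild-type tumour 19, Timp2 in tumour 14A labelled Pak2-/- and in wild-type tumours 20 and 127, and Mmp14 in tumour 61 labelled Pak2-/-. The top 3 members made up 56.8% to 69.7% of the summed level of the 41 in the primary tumours labelled Pak2-/-, 70.7% in 14B and 59.6% to 62.7% in the wild-type tumours. At the other end, Mmp24 reached no more than 0.231 CPM in any tumour.

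**Figure D1:**
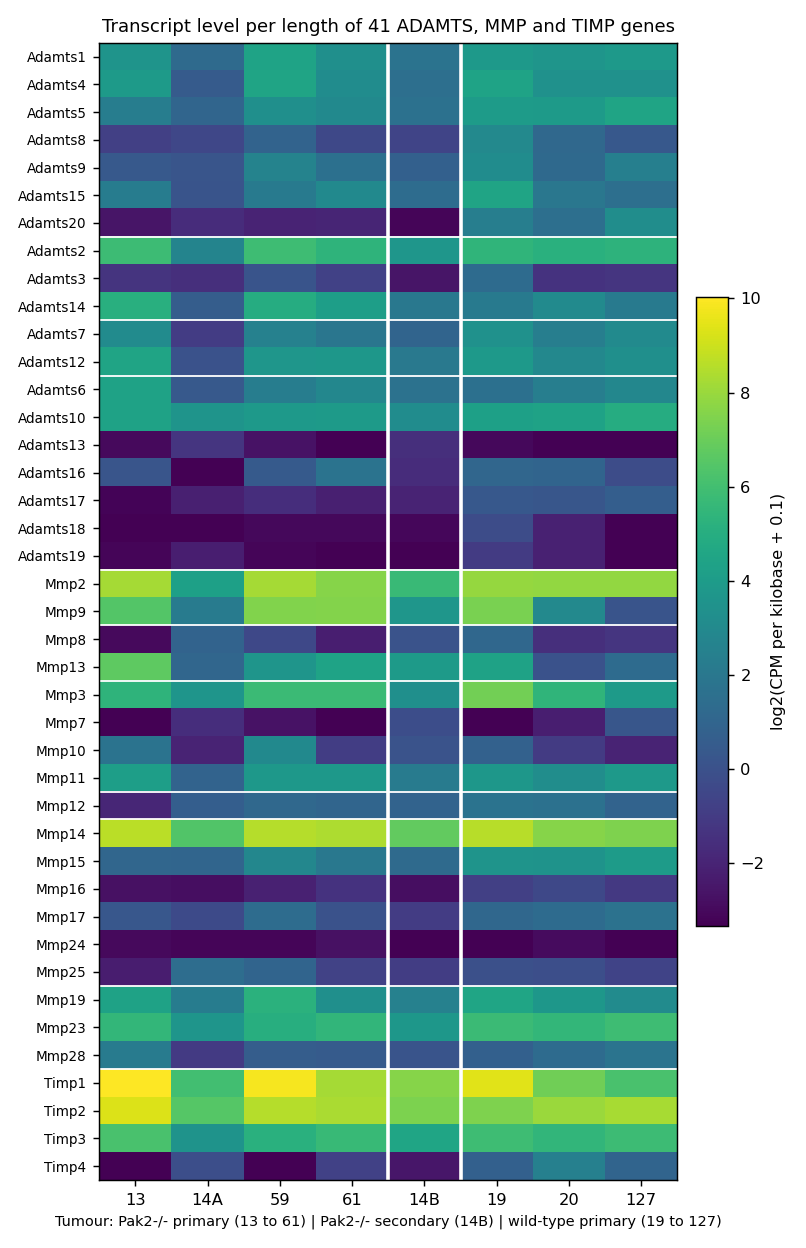
Levels of the 41 members in each of the 8 tumours, as log2 of CPM per kilobase plus 0.1 (colour), with members in rows by role and tumours in columns, those labelled Pak2-/- on the left and wild-type on the right. Timp1, Timp2, Mmp14 and Mmp2 are the brightest rows, and the columns of tumours 14A and 14B are darker than their neighbours for most members.

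Summed over each class, MMP transcripts stood at 0.591, 0.914, 0.782 and 1.27 times the Timp transcripts per kilobase in tumours 13, 14A, 59 and 61 labelled Pak2-/-. The same ratio was 0.608 in 14B, and 1.17, 1.25 and 1.21 in wild-type tumours 19, 20 and 127. The groups overlap through tumour 61, which lies above all 3 wild-type tumours, and the ratio was not tested.

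Among the primary tumours labelled Pak2-/-, 14A was the lowest for most members. The 41 genes took 0.711%, 0.0964%, 0.692% and 0.515% of all counts in tumours 13, 14A, 59 and 61 labelled Pak2-/-, 0.131% in 14B, and 0.594%, 0.370% and 0.395% in wild-type tumours 19, 20 and 127. Tumour 14A was the lowest of its group for 29 of the 36 tested members (34.5% of all genes), and for 26 of 36 (72.2%) it lay below all 6 other primary tumours, where the same held for 23.9% of all genes tested. It was more than 2-fold below the lowest of tumours 13, 59 and 61 for 23 of 36, against 13.0% of all genes. These are descriptions of 1 tumour, without a test.

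Markers of other cells differed in the same tumours. The summed level of 9 fibroblast markers was 2107 CPM in tumour 14A and 14928 to 20622 CPM in tumours 13, 59 and 61 labelled Pak2-/-, 3348 CPM in 14B, and 14063 to 18262 CPM in wild-type tumours. Tumour 14A was the lowest of its group for 8 of those 9 markers. For the other, Pi16, it was the highest, at 34.1 CPM against 3.84 to 24.4 CPM. Most of the sum in tumours 13, 59 and 61 was Col1a1 (5913 to 10386 CPM) and Col3a1 (5802 to 8171 CPM). These 2 collagens, which are also on the list of ADAMTS and MMP substrates, were at 425 and 897 CPM in 14A. Enzymes of the exocrine pancreas summed to 27731 CPM in 14A and to 61.7 CPM or less in tumours 13, 59 and 61, to 204147 CPM in 14B, and to 18.2 CPM or less in wild-type tumours. Of these 8 genes, 6 were not tested, so their reads are outside the library size used for CPM. The sums are therefore not shares of all reads. Macrophage markers summed to 10023 CPM in 14A, 9286 CPM in 14B, 3208 to 4739 CPM in tumours 13, 59 and 61 labelled Pak2-/-, and 1720 to 5266 CPM in wild-type tumours. In 14A that sum came mostly from C1qa, C1qb and C1qc, at 2259, 2973 and 2031 CPM. For 2 of the 9 macrophage markers tested, Csf1r and Mrc1, 14A was instead the lowest of its group. In bulk RNA, fewer cells of a type and less RNA per cell cannot be told apart, and the part of these marker differences in the members' levels was not tested.

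**Figure D2:**
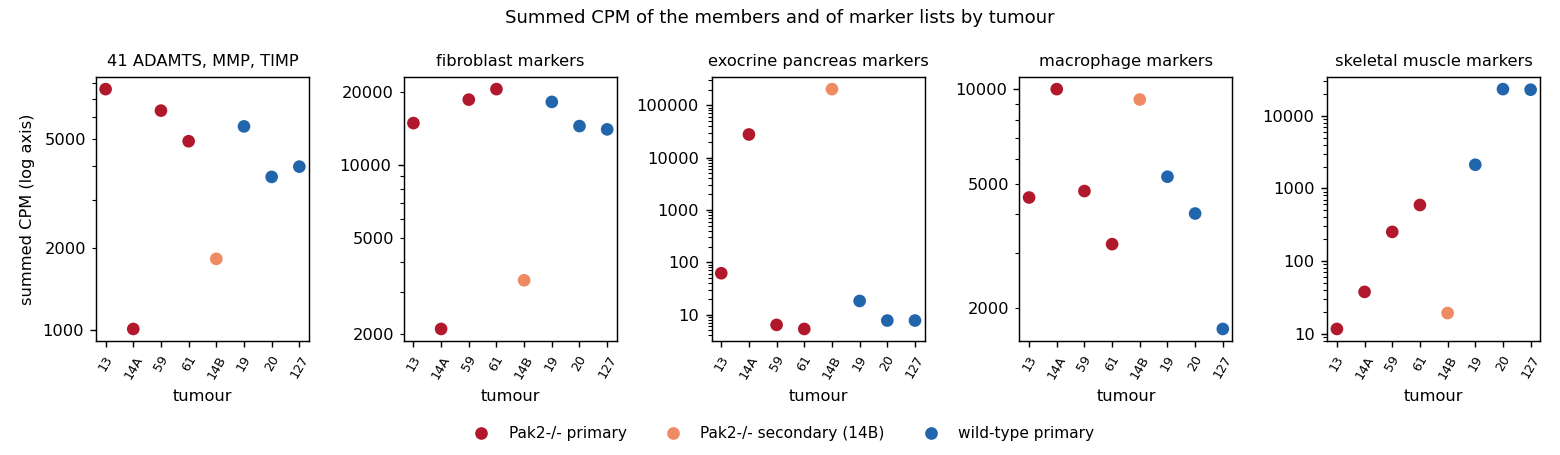
Summed CPM of the 41 members and of 4 marker lists in each tumour, on log axes, 1 point per tumour, with tumours labelled Pak2-/- left of 14B and wild-type tumours on the right. The members and the fibroblast markers are lowest in 14A and 14B, the pancreas markers are highest there, and the skeletal muscle markers are highest in wild-type tumours 20 and 127.

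The primary tumours labelled Pak2-/- were compared with the wild-type primary tumours to ask which members differ with the Pak2 label. A single member, Adamts20, reached an adjusted p under 0.05 in edgeR, and it fell. Among all 15412 genes tested, 11 passed, or 0.0714%, of which 8 (0.0519%) fell and 3 (0.0195%) rose. At an unadjusted p under 0.05, 6 of the 36 tested members were lower (16.7%, against 8.55% of all genes) and 0 were higher (against 4.39%). The median log2 fold change of the tested members was -0.32, against 0.06 over all genes, with 24 of 36 members (66.7%) below 0, against 45.5% of all genes. Without tumour 14A the median of the members was 0.01, against -0.01 over all genes, and 18 of 36 were below 0. Without wild-type tumour 19 the median of the members was 0.06, against 0.09 over all genes, with 17 of 36 below 0, and under limma-voom with quality weights it was 0.17, against 0.02, with 16 of 36 below 0. The direction of the family's median thus turned in all 3 settings.

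The 5 members left out as too low were Adamts13, Adamts18, Adamts19, Mmp7 and Mmp24. Mmp8, Mmp16 and Timp4 passed the filter on low counts through the wild-type tumours alone and Mmp10 through the tumours labelled Pak2-/- alone, so counts over the tested members are descriptions and not evidence about the family. The groups did not overlap, with the tumours labelled Pak2-/- lower, for 7 of 36 (19.4%, against 8.93% of all genes), and in the higher direction for 0 of 36 (against 5.07%).

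**Figure D3:**
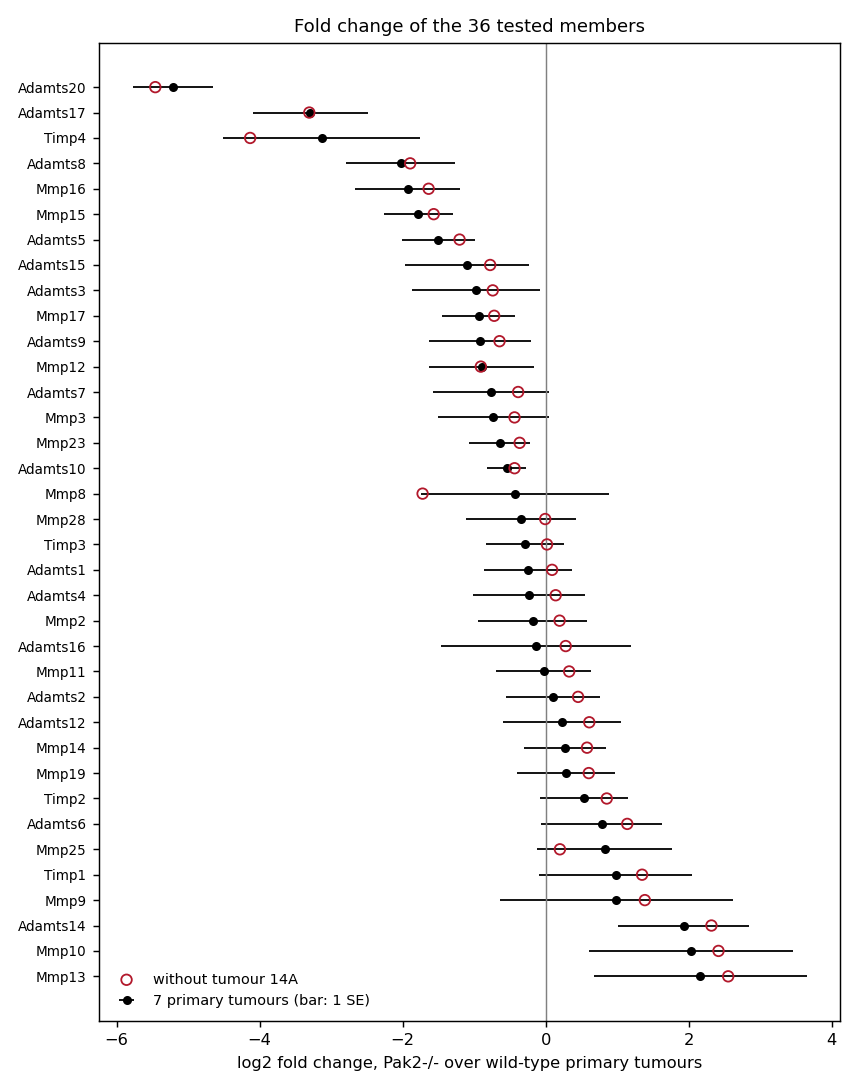
Log2 fold change, Pak2-/- over wild-type primary tumours, of the 36 tested members with bars of 1 SE, and as open circles the same without tumour 14A. Adamts20 stands farthest below 0 at -5.21, the bars of the members in the middle of the plot cross 0, and the open circles of most members lie to the right of their filled ones.

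Adamts20 belongs to the group of ADAMTS proteases that cleave versican and related large proteoglycans, and its mutation in mice gives the belted coat pattern. It stood at 0.495, 1.54, 1.05 and 1.10 CPM in tumours 13, 14A, 59 and 61 labelled Pak2-/-, at 0.104 CPM in 14B, and at 34.9, 19.4 and 64.6 CPM in wild-type tumours 19, 20 and 127. Every tumour labelled Pak2-/- was low and every wild-type tumour high, with no overlap, and the raw counts were 8 to 30 against 312 to 1007. The means were 1.05 ± 0.429 CPM in tumours labelled Pak2-/- and 39.6 ± 23.0 CPM in wild-type tumours (SD, n = 4 and 3), a log2 fold change of -5.21 (SE 0.56, edgeR quasi-likelihood, Benjamini-Hochberg adjusted p = 0.0436). The call was close to the threshold: it held in 9 of 18 alternatives, and leaving out any tumour other than wild-type tumour 19 lost it, with adjusted p up to 0.206 in edgeR's test and log2 fold changes of -5.54 to -4.68. Adamts20 (ENSMUSG00000022449) lies on chromosome 15, 94270163 to 94465418 (GRCm38), and no annotated gene shares its exon bases.

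Because Adamts20 was the member that passed, the sequence around its RefSeq transcription start is shown, 250 bases before to 50 bases after it, on the minus strand at chr15:94404301-94404600 (RefSeq, GRCm38.p6). That start lies inside the span of the gene in the deposited table, so the window is that of an internal start of the deposited gene model. None of the 3 motifs searched in this family is in it, so no base is in capitals.
Adamts20: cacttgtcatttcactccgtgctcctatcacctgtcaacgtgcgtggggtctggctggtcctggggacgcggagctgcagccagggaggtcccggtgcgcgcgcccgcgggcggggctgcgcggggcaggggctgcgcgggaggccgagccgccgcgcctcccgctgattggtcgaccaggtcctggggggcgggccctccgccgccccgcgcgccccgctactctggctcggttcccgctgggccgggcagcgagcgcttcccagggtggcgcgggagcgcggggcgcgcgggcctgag

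The other hyalectan-cleaving ADAMTS genes also had log2 fold changes below 0, so that 7 of 7 lay there with a median of -1.10, although Adamts20 alone passed the test. That shared direction was not kept under every setting: Adamts1 and Adamts4 were at 0.090 and 0.14 without tumour 14A, Adamts4 and Adamts15 were at 0.16 and 0.42 without wild-type tumour 19, and all 3 and Adamts9 were at 0.16 to 0.39 under limma-voom with quality weights. Adamts5, a main aggrecanase of mouse cartilage, stood at 39.9, 15.8, 79.1 and 65.7 CPM in tumours 13, 14A, 59 and 61 labelled Pak2-/-, at 25.2 CPM in 14B, and at 129, 123 and 179.8 CPM in wild-type tumours. The groups did not overlap, but the log2 fold change of -1.50 (SE 0.50) did not pass, with an adjusted p of 0.261 in edgeR. Adamts8 stood at 1.73, 2.26, 6.48 and 2.31 CPM in tumours labelled Pak2-/-, at 2.07 CPM in 14B, and at 27.6, 7.82 and 4.30 CPM in wild-type tumours 19, 20 and 127. Wild-type tumour 19 was far above the rest, and the log2 fold change was -2.03 (SE 0.76, edgeR adjusted p = 0.320) with it and -0.92 without it.

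The remaining 4 of this group did not pass the test. Adamts9, the closest relative of Adamts20, averaged 22.6 ± 19.1 CPM in tumours labelled Pak2-/- and 43.4 ± 26.2 CPM in wild-type tumours (SD, n = 4 and 3). Adamts15 averaged 26.4 ± 16.8 CPM in tumours labelled Pak2-/- and 57.5 ± 65.2 CPM in wild-type tumours, and its log2 fold change of -1.10 became 0.42 without wild-type tumour 19. The aggrecanases Adamts1 and Adamts4 averaged 56.2 ± 39.0 and 52.1 ± 38.5 CPM in tumours labelled Pak2-/-, against 67.8 ± 7.03 and 62.3 ± 26.7 CPM in wild-type tumours. Adamts1 was thus at nearly one level in the 3 wild-type tumours and at 11.5 to 106 CPM in the 4 others.

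Of the 3 ADAMTS genes that trim procollagens, 2 had log2 fold changes above 0 and none passed. Adamts2 stood at 419.6, 46.2, 429 and 302 CPM in tumours 13, 14A, 59 and 61 labelled Pak2-/-, at 94.3 CPM in 14B, and at 311, 255 and 287 CPM in wild-type tumours. Tumour 14A was far below the rest, and the groups overlapped on both sides. Adamts14 stood at 179, 7.30, 157 and 92.0 CPM in tumours 13, 14A, 59 and 61 labelled Pak2-/-, at 20.9 CPM in 14B, and at 22.3, 42.5 and 22.5 CPM in wild-type tumours. All tumours labelled Pak2-/- except 14A lay above all wild-type tumours. The log2 fold change of Adamts14 was 1.93 (SE 0.92, edgeR adjusted p = 0.434), and 1.57 to 2.32 with any 1 tumour left out. Adamts3, which also activates the lymphatic growth factor VEGF-C, had a log2 fold change of -0.97 (SE 0.90).

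Adamts7 and Adamts12, which cleave cartilage oligomeric matrix protein, averaged 25.01 ± 18.7 and 76.1 ± 54.2 CPM in tumours labelled Pak2-/-, against 43.3 ± 15.1 and 66.2 ± 21.5 CPM in wild-type tumours, and neither passed. Among the remaining ADAMTS genes, Adamts17, whose human counterpart is mutated in a Weill-Marchesani-like syndrome of short stature, stood apart. It was at 0.0619, 0.771, 1.42 and 0.751 CPM in tumours 13, 14A, 59 and 61 labelled Pak2-/-, at 0.933 CPM in 14B, and at 7.001, 6.46 and 9.11 CPM in wild-type tumours. No tumour labelled Pak2-/- reached the lowest wild-type tumour. The means were 0.751 ± 0.554 CPM in tumours labelled Pak2-/- and 7.52 ± 1.40 CPM in wild-type tumours, and the log2 fold change of -3.29 (SE 0.80) had an adjusted p of 0.137 in edgeR.

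Adamts10, which binds fibrillin microfibrils, varied least among the tumours labelled Pak2-/-, 1.72-fold between the lowest and the highest, at 65.2 ± 15.1 CPM in tumours labelled Pak2-/- and 96.6 ± 26.2 CPM in wild-type tumours (log2 fold change -0.54, SE 0.27). Its relative Adamts6 reached 100.3 CPM in tumour 13 labelled Pak2-/- and averaged 41.1 ± 41.2 CPM in that group, against 24.4 ± 9.996 CPM in wild-type tumours. Adamts16 averaged 7.16 ± 6.96 CPM in tumours labelled Pak2-/- and 7.92 ± 3.49 CPM in wild-type tumours, with 0 counts in tumour 14A. Adamts13, the protease of von Willebrand factor, had 28 counts in 14A, 11 in 14B and no more than 4 in any other tumour. Adamts18 had 93 counts in wild-type tumour 19 and 12 in wild-type tumour 20, with no more than 2 in any other tumour.

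**Figure D4:**
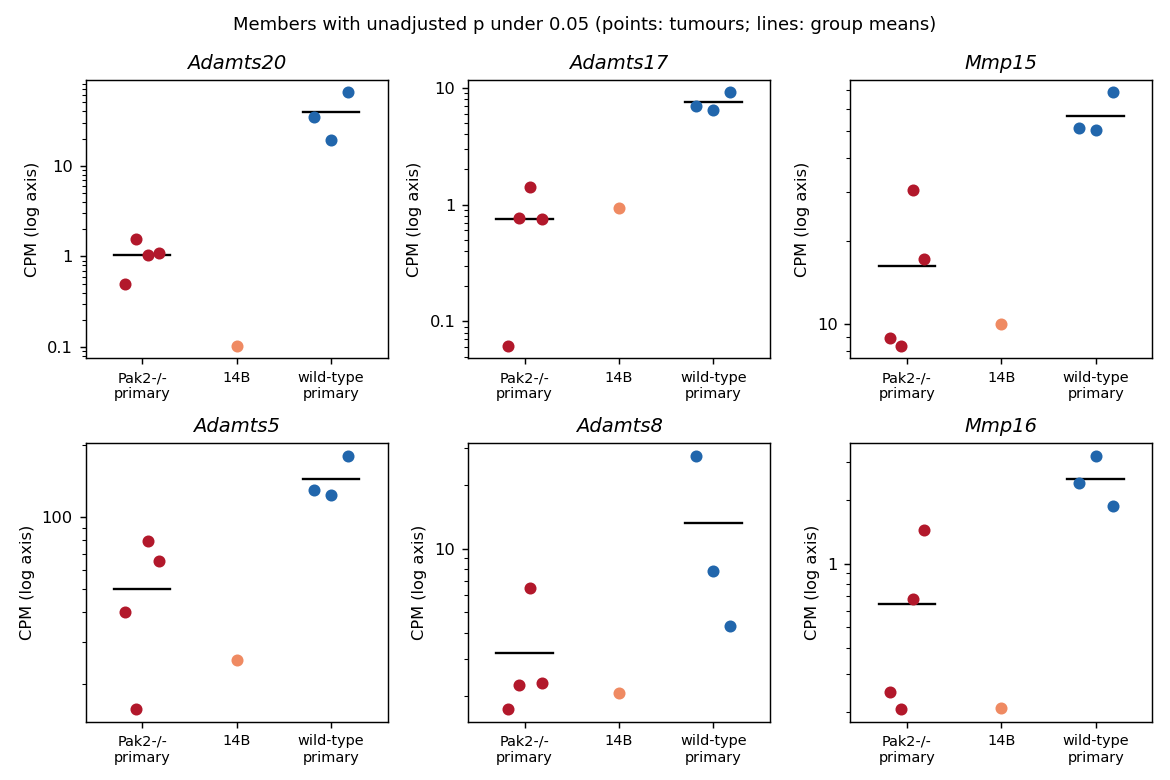
CPM on a log axis of the 6 members with an unadjusted p under 0.05, 1 point per tumour and a line at each group mean, with tumours labelled Pak2-/- on the left, 14B in the middle and wild-type tumours on the right. Adamts20 separates most, at 0.495 to 1.54 CPM against 19.4 to 64.6 CPM, and Adamts8 is the one whose groups overlap.

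The membrane-type MMPs sit on the cell surface, where Mmp14 together with Timp2 activates the precursor of Mmp2. Mmp14 stood at 1056, 221, 966 and 855 CPM in tumours 13, 14A, 59 and 61 labelled Pak2-/-, at 289 CPM in 14B, and at 998, 499.5 and 457 CPM in wild-type tumours 19, 20 and 127. Tumour 14A was the lowest and tumour 13 the highest of all, so that the groups overlapped, with a log2 fold change of 0.27 (SE 0.58).

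Mmp15, a transmembrane relative of Mmp14, stood at 8.92, 8.38, 30.6 and 17.2 CPM in tumours 13, 14A, 59 and 61 labelled Pak2-/-, at 10.1 CPM in 14B, and at 51.1, 50.3 and 68.8 CPM in wild-type tumours. The groups did not overlap, at 16.3 ± 10.3 CPM in tumours labelled Pak2-/- and 56.7 ± 10.5 CPM in wild-type tumours, but the log2 fold change of -1.78 (SE 0.48) did not pass, with an adjusted p of 0.160 in edgeR. Mmp16, also transmembrane, stood at 0.248, 0.206, 0.679 and 1.44 CPM in tumours labelled Pak2-/-, at 0.207 CPM in 14B, and at 2.41, 3.23 and 1.86 CPM in wild-type tumours. It was low everywhere and its groups were close, with a log2 fold change of -1.93 (SE 0.74, edgeR adjusted p = 0.328). The lipid-anchored Mmp17 averaged 5.56 ± 3.57 CPM in tumours labelled Pak2-/- and 10.8 ± 2.23 CPM in wild-type tumours. Mmp25, the lipid-anchored enzyme known from neutrophils, was highest in tumour 14A at 8.94 CPM, and neutrophil markers summed to 375 CPM there, against 20.5 to 53.9 CPM in tumours 13, 59 and 61 and 31.5 to 180.3 CPM in wild-type tumours. The level of Mmp25 did not go with those markers in 14B, where they summed to 323 CPM and Mmp25 was at 1.45 CPM. Nor did it in 2 primary tumours: Mmp25 was at 6.30 CPM in tumour 59, with 53.9 CPM of the markers. It was at 2.87 CPM in wild-type tumour 19, with 180.3 CPM of them.

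The gelatinases Mmp2 and Mmp9 degrade denatured collagen and basement membrane collagen, and their patterns differed from each other. Mmp2 stood at 909, 58.9, 912 and 594 CPM in tumours 13, 14A, 59 and 61 labelled Pak2-/-, at 158 CPM in 14B, and at 741, 696 and 707 CPM in wild-type tumours. The wild-type tumours were nearly equal (714 ± 23.5 CPM, SD, n = 3), while tumour 14A was more than 2-fold below every other primary tumour. Mmp9 stood at 275, 14.5, 567 and 585 CPM in tumours 13, 14A, 59 and 61 labelled Pak2-/-, at 40.9 CPM in 14B, and at 523, 24.5 and 3.21 CPM in wild-type tumours 19, 20 and 127. Here both groups were spread widely, and the log2 fold change of 0.99 (SE 1.63) became 4.71 without wild-type tumour 19. Neither gene passed, with adjusted p of 0.942 for Mmp2 and 0.836 for Mmp9 in edgeR.

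Several MMP genes lie side by side on chromosome 9, among them the collagenases Mmp8 and Mmp13, the stromelysins Mmp3 and Mmp10, the macrophage elastase Mmp12 and the matrilysin Mmp7. From 7272514, the start of Mmp13, to 7699585, the end of Mmp7, they share a neighbourhood but not a pattern across the tumours. Mmp13 stood at 284, 5.40, 32.9 and 56.8 CPM in tumours 13, 14A, 59 and 61 labelled Pak2-/-, at 40.8 CPM in 14B, and at 55.5, 2.48 and 6.61 CPM in wild-type tumours 19, 20 and 127. Mmp10 was highest in tumour 59 at 13.8 CPM and was at 5.57 CPM in tumour 13, and it did not exceed 0.751 CPM in the other tumours of that group, 1.66 CPM in 14B and 2.83 CPM in wild-type tumours. Mmp3 was highest in wild-type tumour 19, at 264 CPM, against 22.5 to 98.4 CPM in primary tumours labelled Pak2-/-, 18.04 CPM in 14B, and 77.0 and 27.9 CPM in wild-type tumours 20 and 127.

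The log2 fold changes were 2.16 (SE 1.49) for Mmp13, 2.03 (SE 1.43) for Mmp10 and -0.73 (SE 0.78) for Mmp3, and none passed, with adjusted p of 0.590, 0.596 and 0.732 in edgeR. For Mmp13 the value was 0.57 without tumour 13 and 4.39 without wild-type tumour 19, and for Mmp3 it was 0.48 without wild-type tumour 19. Mmp12 stood at 0.743, 6.58, 9.69 and 8.61 CPM in tumours 13, 14A, 59 and 61 labelled Pak2-/-, at 8.19 CPM in 14B, and at 14.5, 13.5 and 8.15 CPM in wild-type tumours. Tumour 13 stood low for Mmp12, at less than all other tumours. Mmp8, the neutrophil collagenase, was highest in tumour 14A (4.42 CPM) and in wild-type tumour 19 (5.15 CPM), the primary tumours of each group with the highest summed neutrophil markers, 375 and 180.3 CPM. In 14B, with 323 CPM of those markers, Mmp8 was at 2.38 CPM. The neutrophil sums of tumours 14A and 19 were made of different markers. Ngp and Camp were at 45.4 and 21.2 CPM in 14A and at 0.835 and 0.881 CPM in wild-type tumour 19. Cxcr2 was at 4.57 CPM in 14A and 21.4 CPM in wild-type tumour 19. Mmp7 had 18 counts in wild-type tumour 127, 8 in 14B and 5 or fewer in the others.

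**Figure D5:**
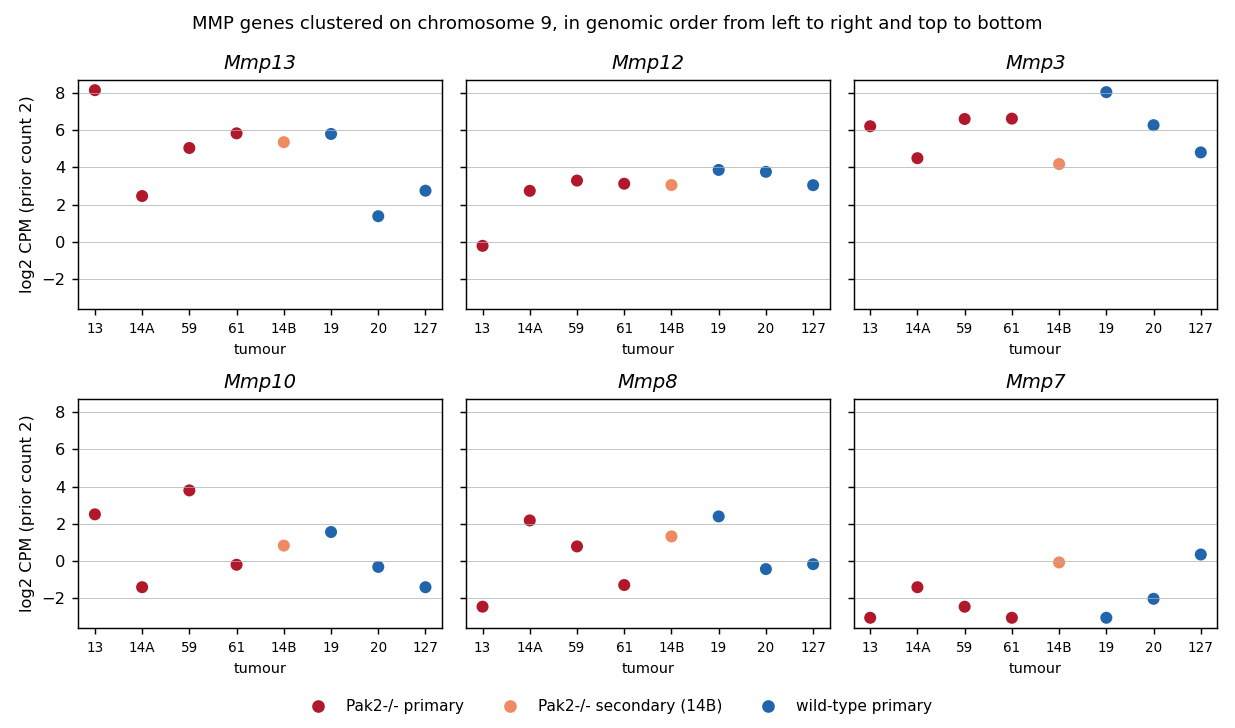
Log2 CPM of the 6 MMP genes of the chromosome 9 cluster in each tumour, in the order in which they lie, with tumours labelled Pak2-/- left of 14B and wild-type tumours on the right. Mmp13 peaks in tumour 13, Mmp10 in tumour 59 and Mmp3 in tumour 19, and Mmp12 dips in tumour 13.

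The windows around the start of Mmp13, Mmp3 and Mmp10 are shown because these neighbours hold the same pair of motifs and were highest in different tumours. The windows run from 250 bases before to 50 bases after the RefSeq start, on the plus strand of GRCm38.p6 (RefSeq), at chr9:7272264-7272563 for Mmp13, chr9:7445572-7445871 for Mmp3 and chr9:7502092-7502391 for Mmp10. Capitals mark the AP-1 motif TGANTCA and the TATA motif TATAAA. The first base of the AP-1 motif lies at -35 for Mmp13, -46 for Mmp3 and -63 for Mmp10, counted from the start, and that of the TATA motif at -16, -7 and -29.
Mmp13: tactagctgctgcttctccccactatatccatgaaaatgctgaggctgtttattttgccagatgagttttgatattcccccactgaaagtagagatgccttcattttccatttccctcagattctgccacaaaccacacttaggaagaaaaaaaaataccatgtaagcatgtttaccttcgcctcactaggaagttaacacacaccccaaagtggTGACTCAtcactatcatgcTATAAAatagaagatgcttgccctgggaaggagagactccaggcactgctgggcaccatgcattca
Mmp3: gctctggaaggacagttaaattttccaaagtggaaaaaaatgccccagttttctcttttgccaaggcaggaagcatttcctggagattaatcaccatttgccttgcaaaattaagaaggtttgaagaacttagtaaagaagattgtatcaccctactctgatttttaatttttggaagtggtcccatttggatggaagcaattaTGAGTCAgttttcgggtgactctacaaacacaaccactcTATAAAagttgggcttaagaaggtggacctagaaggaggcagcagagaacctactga
Mmp10: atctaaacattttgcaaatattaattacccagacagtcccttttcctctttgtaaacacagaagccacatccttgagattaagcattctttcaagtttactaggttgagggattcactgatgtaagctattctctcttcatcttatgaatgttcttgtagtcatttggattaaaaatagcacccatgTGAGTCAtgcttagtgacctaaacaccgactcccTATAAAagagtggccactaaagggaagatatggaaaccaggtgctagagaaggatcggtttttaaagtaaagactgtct

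Of the 41 members, 27 matched a window in the RefSeq table, with 30 windows in all. On either strand, TGANTCA was found in 5 of the 30 windows (of Mmp3, Mmp7, Mmp10, Mmp12 and Mmp13, all in the chromosome 9 cluster), against 7.81% of all 32851 windows. TATAAA was found in 7 of the 30, against 13.6% of all windows, and GGAATG, the core of the TEAD motif, in 2 of the 30 (of Adamts13 and Timp1), against 14.7%. The motifs do not overlap each other in the windows shown. A match describes letters only and says nothing of binding.

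The remaining MMPs did not pass the test. Mmp11, stromelysin-3, a gene known from the stroma of carcinomas, stood at 41.2, 4.11, 31.97 and 31.5 CPM in tumours 13, 14A, 59 and 61 labelled Pak2-/-, at 10.5 CPM in 14B, and at 30.8, 20.98 and 32.9 CPM in wild-type tumours. All tumours but 14A and 14B lay close together, and the log2 fold change was -0.03 (SE 0.66). Mmp23 stood at 65.3, 17.6, 47.0 and 64.2 CPM in tumours labelled Pak2-/-, at 19.4 CPM in 14B, and at 79.9, 66.7 and 83.6 CPM in wild-type tumours. Its groups touched without overlapping, with a log2 fold change of -0.64 (SE 0.43, edgeR adjusted p = 0.579). Mmp19 and Mmp28 averaged 61.7 ± 48.5 and 6.61 ± 6.22 CPM in tumours labelled Pak2-/-, against 51.5 ± 25.2 and 8.59 ± 3.20 CPM in wild-type tumours.

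Among the inhibitors, Timp1 and Timp2 were the most abundant members and neither passed the test. Timp1, an inhibitor of most secreted MMPs, stood at 922, 56.6, 799 and 269 CPM in tumours 13, 14A, 59 and 61 labelled Pak2-/-, at 169.7 CPM in 14B, and at 607, 123 and 65.1 CPM in wild-type tumours 19, 20 and 127. Both groups held high and low tumours. The log2 fold change was 0.98 (SE 1.07, edgeR adjusted p = 0.742) and became 2.45 without wild-type tumour 19, which was also the highest wild-type tumour for Mmp9 and for 22 of the 36 tested members, against 40.0% of all genes.

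Timp2, the partner of Mmp14, stood at 2358, 332, 1368 and 1198 CPM in tumours 13, 14A, 59 and 61 labelled Pak2-/-, at 628 CPM in 14B, and at 636, 978 and 1156 CPM in wild-type tumours. Tumours 13, 59 and 61 lay above all wild-type tumours and 14A below them, with a log2 fold change of 0.54 (SE 0.62). Timp3, which is held in the matrix and also inhibits aggrecanases, stood at 341, 54.8, 170.4 and 243 CPM in tumours labelled Pak2-/-, at 109 CPM in 14B, and at 279, 207 and 269 CPM in wild-type tumours. It had a log2 fold change of -0.29 (SE 0.55) with overlapping groups. Timp4, known from heart and skeletal muscle, had 0 counts in tumours 13 and 59, 1.18 and 0.693 CPM in tumours 14A and 61 labelled Pak2-/-, 0.104 CPM in 14B, and 2.27, 7.88 and 2.63 CPM in wild-type tumours. The groups did not overlap, and the log2 fold change of -3.13 (SE 1.38) had an adjusted p of 0.401 in edgeR.

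Skeletal muscle markers were also lower in the tumours labelled Pak2-/-, and their part in the members' levels was not tested. These markers summed to 11.6, 37.5, 252 and 590 CPM in tumours 13, 14A, 59 and 61 labelled Pak2-/-, to 19.2 CPM in 14B, and to 2117, 23294 and 22870 CPM in wild-type tumours 19, 20 and 127. All 11 of the 11 markers were lower without overlap (against 8.93% of all genes), with a median log2 fold change of -6.06, although none passed (lowest edgeR adjusted p = 0.123). Myh8 and Myod1 were at 0 in tumour 13 and Myog at 0 in tumour 14A. Without wild-type tumours 20 and 127, the pair richest in these markers, Adamts20 had a log2 fold change of -4.99 with an adjusted p of 0.312 in edgeR, in a comparison chosen after seeing the data that leaves 1 wild-type tumour, assumed to vary like the others. In that comparison the log2 fold changes of Adamts3 and Adamts8 were -2.21 and -3.06. Both genes were at their highest in wild-type tumour 19, the only wild-type tumour left, so these values describe that tumour. Adipocyte markers had log2 fold changes below 0 for 6 of 6 genes (against 45.5% of all genes), with a median of -2.79. They summed to 31.2, 205, 31.6 and 379 CPM in tumours 13, 14A, 59 and 61 labelled Pak2-/-. The sum was 77.1 CPM in 14B, and 1099, 1242 and 161 CPM in wild-type tumours 19, 20 and 127. Their part in the members' levels was not tested either.

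The secondary tumour 14B was set beside primary tumour 14A, the one with which it shares a number, as values without a test. It was more than 2-fold higher for 15 of the 36 members tested (against 8.89% of all genes), more than 2-fold lower for 4 (against 7.09%), and within 2-fold for 17. Among the higher, the difference in log2 CPM was 2.89 for Mmp13, 2.23 for Mmp10, 2.12 for Adamts7, 2.11 for Adamts12, 1.58 for Timp1, 1.49 for Mmp9 and 1.42 for Mmp2. The 4 lower were Adamts20 at -2.89, Timp4 at -2.54, Mmp25 at -2.53 and Adamts3 at -1.62. In 14B, Adamts20 and Timp4 had 1 count each and Adamts3 had 5, and Mmp10 had 16 counts in 14B and 5 in 14A. The differences of those genes rest on few reads and depend on the prior count. The summed level of all 41 was 1823 CPM in 14B, against 1011 CPM in 14A, and both lay below the 4911 to 7615 CPM of tumours 13, 59 and 61.

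Genes around the family were read from lists of relatives, activators and substrates, and no gene named from them passed the adjusted test. Of 6 ADAMTS-like genes, which encode matrix proteins without protease activity, 3 were lower at an unadjusted p under 0.05 and 0 were higher, against 8.55% and 4.39% of all genes, the shares against which the other lists below are also to be read. Adamtsl2 averaged 1.26 ± 0.556 CPM in tumours labelled Pak2-/- and 7.59 ± 3.62 CPM in wild-type tumours (log2 fold change -2.56, SE 0.55, edgeR adjusted p = 0.118). Adamtsl3 averaged 7.64 ± 4.21 CPM in tumours labelled Pak2-/- and 67.4 ± 52.4 CPM in wild-type tumours, a log2 fold change of -3.11 (SE 0.73). Of 5 tested hyalectans and link proteins, the proteoglycans and their partners that ADAMTS proteases cleave, 3 were lower by the same criterion (against 8.55% of all genes) and 0 higher (against 4.39%). One of the 3, Bcan, had no more than 14 counts in any tumour. Acan, aggrecan, averaged 0.640 ± 0.892 CPM in tumours labelled Pak2-/- and 17.0 ± 21.9 CPM in wild-type tumours. Wild-type tumour 127 was at 42.3 CPM of Acan, and wild-type tumours 19 and 20 were at 5.38 and 3.29 CPM. Vcan, versican, averaged 542 ± 411 CPM in tumours labelled Pak2-/- and 232 ± 27.4 CPM in wild-type tumours, with a log2 fold change of 1.25 (SE 0.82).

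Of 14 other substrates, 1 was lower by that criterion: Comp, cartilage oligomeric matrix protein, averaged 5.59 ± 3.37 CPM in tumours labelled Pak2-/- and 68.3 ± 66.5 CPM in wild-type tumours (log2 fold change -3.58, SE 0.82, edgeR adjusted p = 0.125). Wild-type tumour 127 was at 145 CPM of Comp, and wild-type tumours 19 and 20 were at 35.8 and 24.1 CPM. In the plasminogen system, whose protease plasmin activates MMP precursors, 1 of 6 tested genes was lower and 1 higher. Serpine2, an inhibitor of plasminogen activators, averaged 66.3 ± 23.9 CPM in tumours labelled Pak2-/- and 225 ± 155 CPM in wild-type tumours. Plaur, the urokinase receptor, averaged 63.9 ± 27.3 CPM in tumours labelled Pak2-/- and 25.2 ± 13.3 CPM in wild-type tumours, a log2 fold change of 1.37 (SE 0.48). The ADAM family of membrane sheddases likewise had 1 lower, Adam23 (11.2 ± 8.96 CPM in tumours labelled Pak2-/- and 51.2 ± 18.7 CPM in wild-type tumours), and 1 higher, Adam10 (214 ± 72.5 CPM in tumours labelled Pak2-/- and 124 ± 20.1 CPM in wild-type tumours), of 10 tested. The 7 tested activators and inhibitors of MMPs held 0 genes at an unadjusted p under 0.05, with log2 fold changes of -1.55 to 3.42. Rarres1 had the lowest p of them, with 3.42 (SE 1.51, edgeR adjusted p = 0.401). Furin, which cuts the precursor of Mmp14, was at 0.29, and Reck, a membrane inhibitor of MMPs, at -0.24. The 4 tested astacin proteases held 1 gene by that criterion, Pcolce2, an enhancer of procollagen processing, at -1.69 (SE 0.50).

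Since the strand setting of the counting is not given, reads of overlapping genes cannot be told apart. Of the 41 members, 12 share exon bases with a gene on the other strand, from 90 bases between Timp4 and Syn2 to 1733 bases between Timp3 and Syn3, and their values are uncertain to that extent.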

How the data were processed

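Tumours were kept in an RNA preservative, ground in liquid nitrogen and sequenced as mRNA-enriched libraries, per the labels' protocols. The authors deposited unnormalised read counts per gene, 1 column per tumour with none pooled, made with STAR and HTSeq on GRCm38 and mm10 per the submitters' processing notes. For tool versions, annotation release, strand setting and filters, the sources used here give nothing. The deposited table also holds gene lengths, used for levels per kilobase, and coordinates. Of its 8 count columns, 0 were identical and 0 came from other samples, and 0 entries lacked a gene. The most similar pair of libraries, tumours 20 and 127, had a mean chi-square per gene of 90.3, so none was a copy.

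Counts of the 4 primary tumours labelled Pak2-/- and the 3 wild-type primary tumours were analysed in edgeR 4.0.16 under R 4.3.3 (TMM, no covariate, filterByExpr with minimum count 10 and minimum total 15), which left 15412 of 35275 genes. Differences were tested with the quasi-likelihood test and Benjamini-Hochberg adjustment at 0.05 over all of them. Log2 fold changes are Pak2-/- over wild-type, and the SE is their size over the square root of the F statistic. CPM used library sizes over the genes tested, with TMM factors from all 8 tumours, and log2 CPM a prior count of 2. The script was tested on simulated data. An exact permutation test of 4 against 3 tumours cannot go below p = 0.0571, so none was used for single genes.

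The members and all gene lists were chosen with earlier results of these data known. All 41 members may be named. Those given in every tumour are the members with an unadjusted p under 0.05, the 3 highest per length, Mmp2, Mmp9, Mmp14, the Timps and those with a tumour far from its group, and a few more were added after their values were seen (Mmp3, Mmp12, Mmp13, Mmp23 and Adamts14). Up to 4 tested genes of each context list with the lowest p were eligible, but not all genes named keep to that rule. Vcan was added after its values were seen. Others named outside the rule include Furin, Reck, Mrc1, Col1a1, Col3a1 and Calb2. Alternatives were other scaling factors, other filters, DESeq2 1.42.0, limma 3.58.1 (voom with quality weights), robust edgeR, other uses of tumour 14B, leaving out each tumour, and, chosen after seeing the data, leaving out wild-type tumours 20 and 127. All 41 members were found at the same place in the GENCODE annotation of GRCm38 used for overlaps.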

Additional observations from a re-analysis of the deposited data

Results flagged for a closer look

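In 5 of the 36 tested members, 1 of the 4 primary tumours labelled Pak2-/- stood far from the other 3 on the log2 CPM scale, with a gap to its nearest neighbour of a larger share of the group's range than Dixon's critical value for 4 samples. Chance alone flags about 1 in 20 groups of this size. Tumour 14A was the low one in 4 of them: the gap was 0.842 of the range for Adamts2, 0.843 for Mmp2, 0.883 for Mmp11 and 0.865 for Mmp14. Adamts2 was at 46.2 CPM in 14A and at 302 to 429 CPM in tumours 13, 59 and 61, and Mmp11 at 4.11 CPM and at 31.5 to 41.2 CPM. In the same tumour the fibroblast markers summed to 2107 CPM and the exocrine pancreas markers to 27731 CPM, and their part in the gaps was not tested.

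Mmp12, the macrophage elastase, was the one of the 5 with another tumour apart: tumour 13 was low, at 0.743 CPM, with a gap of 0.843 of the range below tumours 14A, 59 and 61 at 6.58 to 9.69 CPM. The summed macrophage markers were at 4520 CPM in tumour 13, and at 10023, 4739 and 3208 CPM in tumours 14A, 59 and 61, and their part in the level of Mmp12 was not tested.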

How the results depend on the processing

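Of 18 alternatives, none moved Adamts20 above 0: its log2 fold change ran from -5.54 to -4.68, and its adjusted p from 1.26e-16 (DESeq2) to 0.312 (without wild-type tumours 20 and 127). It passed in 9 of the 18, and missed under robust edgeR (adjusted p = 0.0564) and with 14B as a group of its own (adjusted p = 0.0604). Over all genes, 11 passed in the edgeR comparison, against 20 with a CPM of at least 1 in 3 tumours, 1149 with DESeq2 (310 higher, 839 lower), 950 with limma-voom and quality weights (243 higher, 707 lower), 4 with robust edgeR, 191 with 14B added to the group labelled Pak2-/-, 4 with 14B as its own group and 0 without tumours 20 and 127. Leaving out 1 tumour gave 0 to 59, with 59 without wild-type tumour 19, 1 without wild-type tumour 127, 8 without tumour 14A and 0 without any of the other 4. Members that passed were 3 with DESeq2 (Adamts17, Adamts20 and Mmp15), 3 with limma-voom (Adamts17, Adamts20 and Timp4), 0 with robust edgeR, 0 with 14B as its own group, 0 without tumours 20 and 127, and 0 to 1 with 1 tumour left out, against 1 in the edgeR comparison. Members at an unadjusted p under 0.05 were 12 with limma-voom, 7 of them lower and 5 higher, against 6. The median log2 fold change of the members was -0.32 in the edgeR comparison, 0.17 under limma-voom, 0.06 without wild-type tumour 19 and 0.01 without tumour 14A.

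Of the 36 tested members, 17 kept the sign of their fold change in all 18 alternatives and 19 did not, 37 sign changes in all, each of a member that did not pass. Under limma-voom the log2 fold changes were 0.27 for Mmp11, 0.39 for Adamts4, 0.19 for Adamts1, 0.16 for Adamts9, 0.066 for Mmp2, 0.21 for Adamts15, 0.56 for Mmp3 and 0.88 for Adamts3. With 14B added, Adamts2 was at -0.11. Without tumours 20 and 127 the values were -0.31 for Mmp14, -0.19 for Timp1, -0.49 for Mmp9, 0.31 for Mmp28, -0.31 for Mmp19, -0.0031 for Adamts2 and -0.18 for Adamts12. With 1 tumour left out the range was -0.15 to 0.45 for Adamts2, -0.18 to 1.14 for Adamts6, -0.24 to 0.61 for Adamts12, -0.31 to 0.33 for Mmp11, -0.73 to 0.16 for Adamts4, -0.68 to 0.019 for Timp3 and -0.78 to 0.090 for Adamts1. It was -0.45 to 0.20 for Mmp2, -0.96 to 0.28 for Adamts16, -0.35 to 0.72 for Mmp19, -1.72 to 1.19 for Mmp8, -1.55 to 0.42 for Adamts15, -1.22 to 0.48 for Mmp3 and -1.54 to 0.78 for Adamts3. The cause was not tested. Members under about 1 CPM rest on few counts, where depth limits what can be seen. No paired analysis was possible because the groups share no replicate number.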
